A study of Mus musculus with 14 samples.

Results

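Nuclear genes of respiratory chain complexes I, III, IV and V and of cytochrome c were examined in RNA-seq of mouse hepatocellular carcinoma (HCC) cells. Members were the genes whose symbols begin with Nduf, Uqcr, Cox4, Cox5, Cox6, Cox7 or Atp5, together with Cyc1 and Cycs. They made up 89 of the 24972 symbols in the expression table. Of these, 85 had a mean normalised count of at least 10 over the 14 libraries and were tested. Cox4i2, Cox6b2, Cox7b2 and Ndufa4l2 fell below that limit, and none of them exceeded 5.74 in any library. By role the 89 genes were 36 subunits of complex I (7 core and 29 accessory), 8 complex I assembly factors, 9 subunits of complex III, cytochrome c itself, 17 subunits of complex IV, 16 subunits of complex V and 2 others. Ndufa4 was counted with complex IV, where its protein resides. The 2 others were Atp5s, coupling factor B, and Ndufb4c, a single-exon copy of Ndufb4.

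WT and ACLY KO cells gave 4 libraries each, and ACSS2 KO and DKO1 cells gave 3 each, all from cells kept for 24 h in DMEM with 10% calf serum. WT cells were HCC cells with floxed Acly alleles, grown from tumours of mice given diethylnitrosamine, and they carried empty LentiCRISPR v2 as a bulk population. ACLY KO cells were a clonal population grown from a single cell of that line after adenoviral Cre, likewise with empty LentiCRISPR v2. ACSS2 KO and DKO1 cells were clones from single cells edited with CRISPR in an Acss2 exon, DKO1 on the ACLY KO background. Genotype and clone therefore cannot be told apart in any comparison. The study presents the libraries of a genotype as biological replicates, but its methods except RNA-seq from the assays that were repeated independently, so the p-values measure only the spread between these libraries, which may be technical. ACLY makes acetyl-CoA from citrate and ACSS2 makes it from acetate. The comparisons ask how the respiratory chain transcripts stood after loss of either enzyme or of both.

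Complex I takes electrons from NADH through its FMN-binding subunit and a chain of iron-sulfur clusters to ubiquinone. Complex III passes them from ubiquinol to cytochrome c by way of the Rieske iron-sulfur protein and cytochrome c1, and complex IV hands them to oxygen. The proton gradient built on the way drives ATP synthesis in complex V, in which a membrane ring and rotor turn inside a catalytic head. In liver and other tissues the chain reoxidises the NADH made from fatty acids and from the citric acid cycle. The mitochondrial genome encodes the remaining core subunits. None of the 13 symbols searched for its transcripts was in the expression table, so they were not analysed.

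Normalised counts summed to between 23565707 and 26946164 a library. Taking the commonest low value of a library as 1 read gave implied depths of 19121116 to 33440155 reads. Mean Acly was 6050 normalised counts in WT and 5684 in ACSS2 KO, against 1001 in ACLY KO and 945.5 in DKO1. Acss2 averaged 237.0 in WT, 132.3 in ACSS2 KO cells, 717.9 in ACLY KO and 534.9 in DKO1, and its level is no check of an edit made by a guide, which need not lower the transcript. Defining hepatocyte transcripts were scarce, with Alb between 7.10 and 137.2 and Serpina1a at most 2.57, while Krt8 and Krt18 were abundant. The 10 hepatocyte markers summed to 48140 to 65080 in WT, 41060 to 44030 in ACSS2 KO cells, 34800 to 37960 in ACLY KO and 26360 to 45330 in DKO1. Nearly all of this was Krt8 and Krt18, which averaged 26050 and 27540 in WT. Markers of other cell types, 12 in all, summed to 21510 to 31750 in WT, 18180 to 20400 in ACSS2 KO cells, 10750 to 11570 in ACLY KO and 11640 to 18470 in DKO1, and most of this was Krt7 and Krt19. Adgre1 and Lrat, which mark macrophages and stellate cells, did not exceed 0.855 and 2.34 in any library, but further markers of such cells were present. Col1a1, a collagen of fibroblasts, averaged 428.3 in WT, 522.6 in ACSS2 KO cells, 2454 in ACLY KO and 477.1 in DKO1. Pecam1, an endothelial marker, averaged 7.51, 9.31, 61.6 and 37.7 in the same order. Cd68, a macrophage marker, lay between 22.1 and 101.8, and Ptprc, which marks leukocytes, between 2.14 and 28.2. In ACLY KO against WT 2 of the 7 tested hepatocyte markers rose (Afp at 1.82 and Apoa2 at 1.47). The 3 that fell were Hnf4a (-2.59), Krt8 (-0.50) and Krt18 (-0.66). Of the 8 tested markers of other cell types Col1a1, Col1a2 and Pecam1 were called higher and Krt7, Krt19 and Epcam lower. Among all genes 23.8% rose and 24.7% fell. The marker counts were the same without DKO1 replicate 4 (30.1% and 31.4% of all genes). Pecam1 passed the filter on low values through the ACLY KO and DKO1 libraries. Epcam averaged 12.7 in WT, 19.7 in ACSS2 KO cells, 3.05 in ACLY KO and 6.89 in DKO1. It passed the filter through the WT and ACSS2 KO libraries. The calls of Pecam1 and Epcam are therefore not results. The part of these markers in the results that follow was not tested. In bulk RNA fewer cells of a type and less RNA per cell cannot be told apart.

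RefSeq promoter windows were at hand for 70 of the 89 genes (build GRCm38.p6, 250 bases before to 50 bases after the start). Windows are printed for genes to which the comparisons below return: Uqcrfs1, the Rieske protein, at chr13:30545267-30545566 (minus strand); Cycs, cytochrome c, at chr6:50566520-50566819 (minus strand); Atp5g2, a gene for the ring subunit, at chr15:102670998-102671297 (minus strand); Ndufaf1, an assembly factor of complex I, at chr2:119662785-119663084 (minus strand); and Atp5b, the catalytic subunit of complex V, at chr10:128083057-128083356 (plus strand). Each reads 5′ to 3′ on the gene's strand, and capitals mark matches to the motifs named after them.
Uqcrfs1: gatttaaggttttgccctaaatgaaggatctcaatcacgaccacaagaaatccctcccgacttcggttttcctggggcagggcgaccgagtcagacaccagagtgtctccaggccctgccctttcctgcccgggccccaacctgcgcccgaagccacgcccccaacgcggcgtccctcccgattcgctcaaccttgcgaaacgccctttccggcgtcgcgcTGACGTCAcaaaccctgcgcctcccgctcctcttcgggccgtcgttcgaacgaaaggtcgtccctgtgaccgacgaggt
Cycs: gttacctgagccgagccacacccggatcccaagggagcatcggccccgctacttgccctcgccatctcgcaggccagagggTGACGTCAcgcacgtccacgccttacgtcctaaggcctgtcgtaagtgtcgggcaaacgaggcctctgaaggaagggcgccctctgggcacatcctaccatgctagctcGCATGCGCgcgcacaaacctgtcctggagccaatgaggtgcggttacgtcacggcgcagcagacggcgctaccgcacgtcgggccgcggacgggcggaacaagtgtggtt
Atp5g2: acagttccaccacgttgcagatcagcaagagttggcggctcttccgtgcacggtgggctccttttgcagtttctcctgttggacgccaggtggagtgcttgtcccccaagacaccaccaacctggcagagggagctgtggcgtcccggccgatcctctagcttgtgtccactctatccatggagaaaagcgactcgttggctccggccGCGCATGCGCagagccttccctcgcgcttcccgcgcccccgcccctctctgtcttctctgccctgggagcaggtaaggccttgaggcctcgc
Ndufaf1: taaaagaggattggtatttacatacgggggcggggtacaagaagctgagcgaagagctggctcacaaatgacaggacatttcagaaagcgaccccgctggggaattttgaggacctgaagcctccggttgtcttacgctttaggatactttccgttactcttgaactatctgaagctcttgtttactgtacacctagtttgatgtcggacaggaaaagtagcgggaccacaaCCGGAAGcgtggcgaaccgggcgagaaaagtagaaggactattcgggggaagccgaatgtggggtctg
Atp5b: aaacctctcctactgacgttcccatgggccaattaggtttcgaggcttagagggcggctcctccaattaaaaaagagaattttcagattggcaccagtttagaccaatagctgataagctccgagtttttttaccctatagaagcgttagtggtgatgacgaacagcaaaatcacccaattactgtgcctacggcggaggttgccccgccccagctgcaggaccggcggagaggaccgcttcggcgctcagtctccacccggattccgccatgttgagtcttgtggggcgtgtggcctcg

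In all, 5 motifs were searched for on both strands, chosen with results of these data known, and 3 of the 5 overlap one another. GCATGCGC, letters typical of NRF1 motifs, was present in 17.1% of the 70 members' windows and in 3.05% of the windows of all 27025 symbols. Its shorter form CATGCGC was in 21.4% against 4.41%, and its longer form with GC before it was in 10.0% against 1.07%. The ETS-type letters CCGGAAG were in 21.4% against 9.93%, and the CRE-type letters TGACGTCA were in 7.14% against 2.03%. Among the printed windows Cycs holds GCATGCGC at position -60 and TGACGTCA at -169 from the start, Atp5g2 holds the longer NRF1-type form at -42, Uqcrfs1 holds TGACGTCA at -29, and Ndufaf1 holds CCGGAAG at -18. None of the 5 motifs occurs in the Atp5b window. Such matches describe letters and are not evidence of binding. Nrf1 itself averaged 1369 in WT, 1238 in ACSS2 KO cells, 941.0 in ACLY KO and 857.5 in DKO1, and against WT it fell in ACLY KO cells (log2 fold change -0.54, adjusted p = 4.7e-06 by limma) and likewise in DKO1 cells (-0.67, adjusted p = 1.2e-06). Once DKO1 replicate 4 was left out these were -0.54 (adjusted p = 1.5e-06) and -0.66 (adjusted p = 1.7e-06).

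Averaged over the respiratory chain genes, libraries within WT and within DKO1 differed by more than the genotype means did. Those within ACLY KO and within ACSS2 KO differed by less. For each gene the log2 value was set against its mean over the 14 libraries, and these differences were averaged over the 85 genes. DKO1 replicate 4 stood at 1.13, against -0.21 and 0.04 in DKO1 replicates 1 and 3. WT replicate 2 stood at 0.23, while the other WT libraries lay between -0.38 and -0.15. ACLY KO libraries ranged from -0.05 to 0.20 and ACSS2 KO libraries from -0.28 to -0.05. Genotype means ran from -0.17 in ACSS2 KO to 0.32 in DKO1. Over the 14 libraries DKO1 replicate 4 held the highest value of 77 of the 85 genes, and among the WT libraries WT replicate 2 was highest in 80 of 85. The same order of DKO1 libraries was seen in complexes I, III, IV and V alike, and cytochrome c was the one group in which WT replicate 2 lay above DKO1 replicate 4 (0.62 against 0.39).

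**Figure D1:**
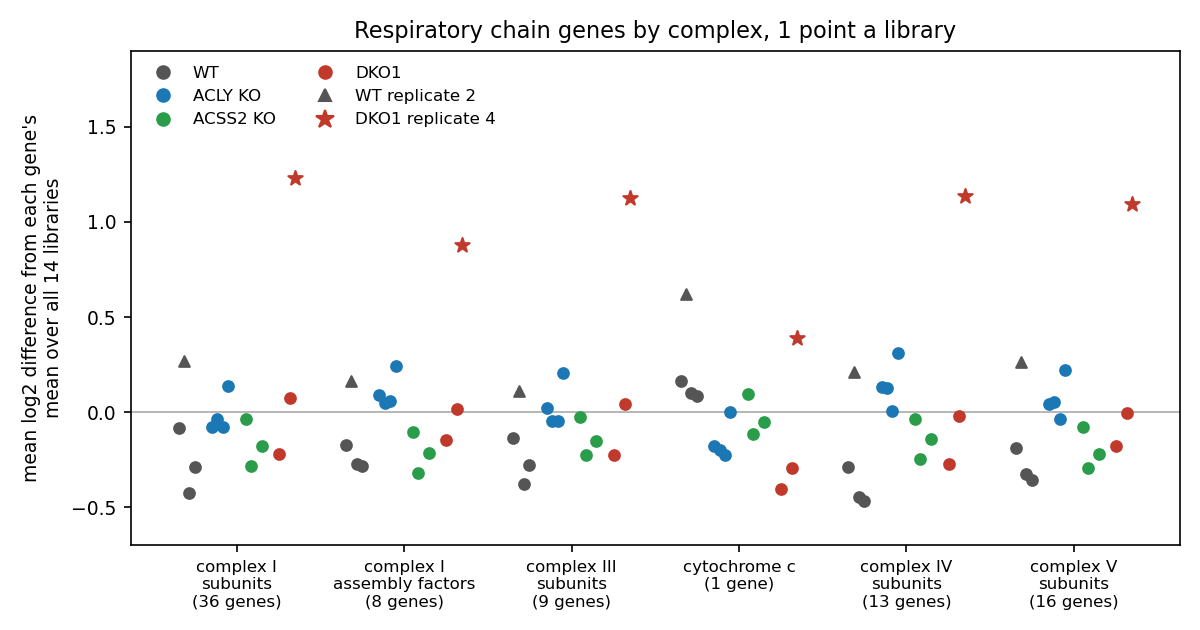
Mean log2 difference from each gene's mean over the 14 libraries (y axis) for the genes of each complex (x axis), with 1 point a library coloured by genotype. The star, DKO1 replicate 4, lies at 1.23 in complex I subunits and at 0.88 in complex I assembly factors, above every other library in all groups but cytochrome c.

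Transcript length moved with this pattern. The 85 genes had a median transcript length of 747.5 bases against 2683 for all genes tested, and 63.5% of them were shorter than 1000 bases against 8.8% of all genes. In DKO1 replicate 4 every one of the 85 lay above the mean of DKO1 replicates 1 and 3, by a median of 1.26 on the log2 scale, while the median over all genes was 0.003. Across the 85 genes that excess had a Spearman correlation of -0.61 with length, and across 12577 genes one of -0.70. These points share 1 library and its base composition, so the correlations are descriptions. Set against the other libraries of its genotype, WT replicate 2 showed the same sign, with a median of 0.54, 82 of 85 members above 0 and correlations of -0.32 over the members and -0.60 over all genes. So did ACLY KO replicate 4, with a median of 0.23, 84 of 85 members above 0 and correlations of -0.53 and -0.58, and ACSS2 KO replicate 1, with a median of 0.17, 81 of 85 above 0 and correlations of -0.38 and -0.53. The least raised members in DKO1 replicate 4 were long ones, Ndufs1 (0.06, 2625.5 bases) and Ndufa10 (0.24, 2020 bases). Other long members were raised more, among them Atp5g1 (1.08, 2675.5 bases), Ndufab1 (1.23, 2447.5 bases) and Ndufb2 (1.44, 2413 bases). The short Atp5g2 was raised by only 0.49 (586 bases). Calls and fold changes are therefore set beside their values without DKO1 replicate 4.

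**Figure D2:**
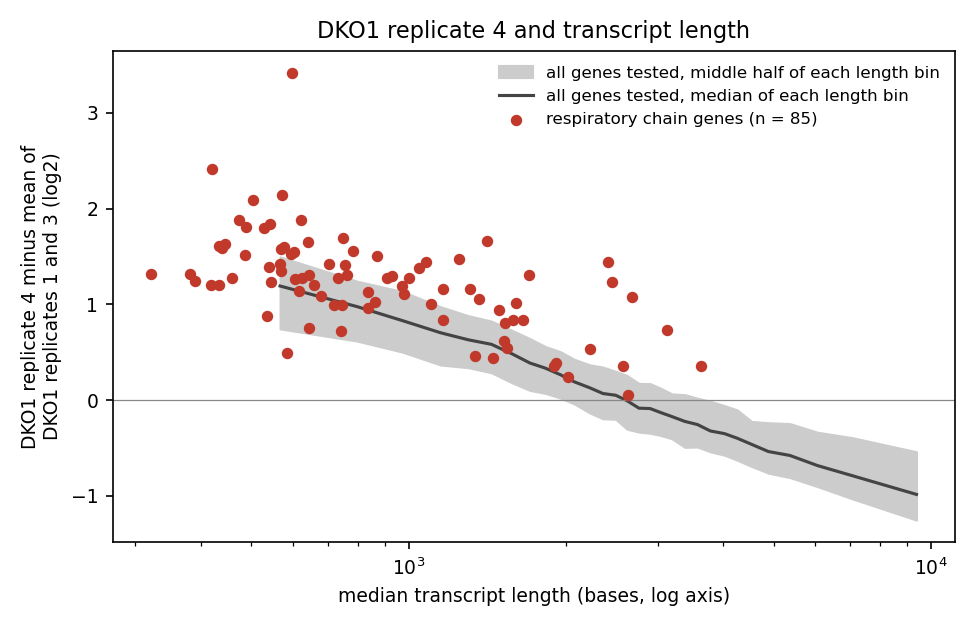
Difference between DKO1 replicate 4 and the mean of DKO1 replicates 1 and 3 (log2, y axis) against median transcript length (bases, log x axis). Red points are the 85 respiratory chain genes, and the line and band are the median and the interquartile range of all genes tested in bins of length, whose median falls from 1.19 in the shortest bin to -0.99 in the longest.

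Between genotypes the members called in either direction were a smaller share than among all genes when all libraries entered. In DKO1 against WT the share that rose was close to that of all genes. The test was limma's, run on log2(value + 1) for 12693 genes, and a gene was called at a Benjamini-Hochberg adjusted p under 0.05 over all of them. In ACLY KO against WT 8 of the 85 rose and 1 fell, where 23.8% of all genes rose and 24.7% fell. The median log2 fold change was 0.20 for the members and -0.01 for all genes. In ACSS2 KO against WT 2 rose and none fell by limma (15.0% and 11.0% of all genes), with 4 higher and 1 lower at an unadjusted p under 0.05 and a median of -0.05. In DKO1 against WT 24 rose and none fell by limma (27.9% and 28.1% of all genes), with 34 higher and 0 lower at an unadjusted p under 0.05 and a median of 0.42. In DKO1 against ACLY KO 5 rose and 1 fell (14.3% and 13.6% of all genes), with a median of 0.26. The interaction, which is the step from ACLY KO to DKO1 minus the step from WT to ACSS2 KO, was positive in 1 and negative in 2 (12.0% and 15.1% of all genes). Cox6a2 is counted in ACLY KO and in DKO1 against WT and in the interaction, and it passed the filter on low values through the libraries where it is high, so its call there is not a result. Fitting the compared genotypes alone gave 5 called members in DKO1 against WT and 0 in DKO1 against ACLY KO by limma, with 7 higher and 1 lower at an unadjusted p under 0.05 in the latter. These comparisons share the libraries of WT, of ACLY KO or of DKO1 and are not independent of one another. Libraries of the compared genotypes did not overlap in 16 members higher and 2 lower in ACLY KO against WT (25.9% and 27.1% of all genes). In ACSS2 KO against WT this was 5 and 2 (23% and 19.8%). In DKO1 against WT it was 11 and 0 (23.3% and 24.3%), or 11 and 7 without DKO1 replicate 4 (32.6% and 33.2%). In DKO1 against ACLY KO it was 8 and 1 (17.4% and 17.1%), or 8 and 33 without that library (28.7% and 28.6%). Separations named below are descriptions.

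Without DKO1 replicate 4 the picture of DKO1 changed sign for many members. In DKO1 against WT 13 rose and 5 fell (30.3% and 31.0% of all genes), and the median dropped to 0.08. Of the 24 genes called with all libraries 13 stayed called in the same direction, and 28 of the 85 fold changes took the opposite sign. In DKO1 against ACLY KO 2 rose and 8 fell (16.2% and 15.3% of all genes), the median turned to -0.16, and 53 of 85 signs differed. The interaction was positive in none and negative in 9 by limma (15.5% and 18.0% of all genes; 2 and 13 members at an unadjusted p under 0.05), and 46 signs differed. Fold changes of ACLY KO and ACSS2 KO against WT use no DKO1 library, but the shared estimate of spread does, and it narrowed. In ACLY KO against WT 28 then rose and 5 fell (30.1% and 31.4% of all genes), including all 9 called before. In ACSS2 KO against WT 4 rose and 2 fell (21.3% and 18.7% of all genes). Without DKO1 replicate 4 Cox6a2 is counted in each of these comparisons, higher in those against WT and lower in DKO1 against ACLY KO. For the reason given above its calls are not results.

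**Figure D3:**
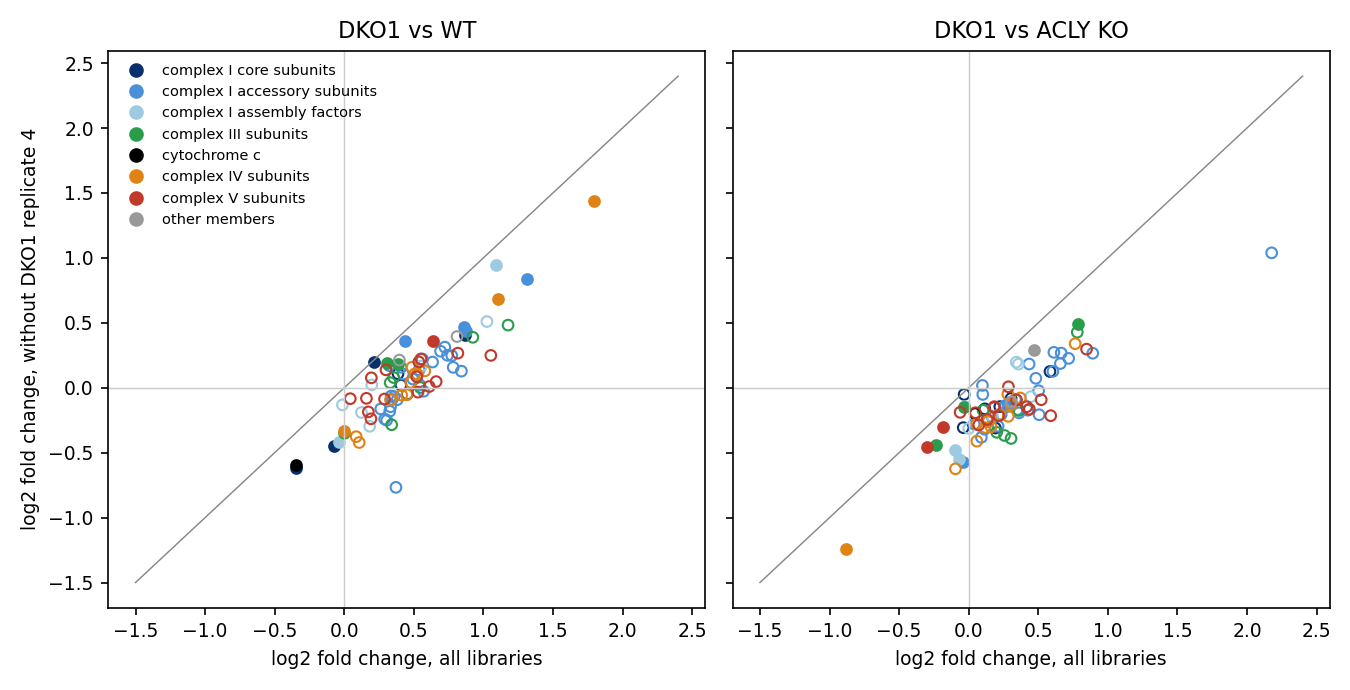
Log2 fold change of each of the 85 genes with all libraries (x axis) and without DKO1 replicate 4 (y axis), for DKO1 against WT and DKO1 against ACLY KO, coloured by group; filled points were called without that library. All 85 points lie below the diagonal in both panels, and the medians are 0.42 and 0.08 in the left panel and 0.26 and -0.16 in the right panel.

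Leaving out WT replicate 2 as well as DKO1 replicate 4, an alternative added after the data were seen, gave 61 higher and 5 lower members in ACLY KO against WT, where 68.8% of all genes were called. ACLY KO replicate 4, in which 84 of the 85 members lay above the other ACLY KO libraries, was kept in that fit. The same step gave 14 higher and 2 lower in ACSS2 KO against WT (47.9% of all genes), 41 higher and 5 lower in DKO1 against WT (68.6%), 9 higher and 27 lower in DKO1 against ACLY KO (43.4%), and 1 positive and 31 negative interactions (44.1%). Removing a smooth trend on transcript length from every library kept all 14 libraries and gave 27 higher and 5 lower members in ACLY KO against WT, where 61.2% of all genes were called. It gave 6 higher and 4 lower in ACSS2 KO against WT (42.1% of all genes), 25 and 6 in DKO1 against WT (65.9%), 13 and 12 in DKO1 against ACLY KO (38.8%), and 7 and 10 for the interaction (39.1%). The member medians after that correction were 0.12 in ACLY KO and 0.14 in DKO1 against WT, and -0.02 in DKO1 against ACLY KO.

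Complex III subunits moved in opposite directions in ACLY KO cells. Cyc1, which encodes cytochrome c1, had 3716 to 4130 normalised counts in the 4 WT libraries and 5840 to 6567 in the 4 ACLY KO libraries. ACSS2 KO libraries held 3843 to 4146, and the DKO1 libraries held 4380, 4630 and 6887. All ACLY KO libraries lay above all WT and ACSS2 KO libraries, and DKO1 replicates 1 and 3 lay between. Cyc1 rose in ACLY KO against WT (log2 fold change 0.62 ± 0.11 SE, adjusted p = 0.00052, or 2.7e-07 without DKO1 replicate 4) and, likewise against WT, in DKO1 (0.39 ± 0.12, adjusted p = 0.017, with 0.18 ± 0.06 and adjusted p = 0.023 once DKO1 replicate 4 was left out). In DKO1 against ACLY KO the value was -0.23 (adjusted p = 0.18), and without replicate 4 it fell by 0.44 on the log2 scale (adjusted p = 0.00018).

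Uqcrfs1, the Rieske protein whose promoter window holds TGACGTCA, went the other way. Its ACLY KO libraries held 1512, 1456, 1456 and 1621 normalised counts, below all 10 libraries of the other genotypes. The WT libraries held 2432, 3795, 2265 and 2153, the ACSS2 KO libraries 2975, 2475 and 2709, and the DKO1 libraries 1974, 2089 and 4229. It fell in ACLY KO against WT (-0.78 ± 0.22, adjusted p = 0.011, or 0.00032 when DKO1 replicate 4 was left out). Against ACLY KO it rose in DKO1 with all libraries (0.78 ± 0.24, adjusted p = 0.029), and without replicate 4 the value was 0.43 ± 0.17 (adjusted p = 0.077).

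Uqcrb, a small subunit of complex III, was also lowest on average in ACLY KO. Its levels were 1829 to 3107 in WT, 1920 to 2320 in ACSS2 KO cells, 1528 to 1832 in ACLY KO and 2186, 2418 and 4214 in DKO1. The highest ACLY KO library passed the lowest WT library, and all DKO1 libraries lay above all ACLY KO libraries. Uqcrb rose in DKO1 against ACLY KO with DKO1 replicate 4 (0.78 ± 0.21, adjusted p = 0.015) and without it (0.49 ± 0.16, adjusted p = 0.034). Of the 6 members called in DKO1 against ACLY KO with all libraries, a replicate block left 3 called, namely Uqcrb, Uqcrfs1 and Atp5s, and a fit on the ACLY KO and DKO1 libraries alone left none by limma (7 members higher and 1 lower at an unadjusted p under 0.05). In ACLY KO against WT the value was -0.45 ± 0.20 (adjusted p = 0.073), and it fell at an adjusted p of 0.0094 without DKO1 replicate 4. Both Uqcrfs1 and Uqcrb lie on chromosome 13. In ACLY KO against WT the 469 genes tested on that chromosome had a median of -0.42, and the genes within 5 Mb of Uqcrfs1 and of Uqcrb had medians of -0.31 and -0.66. In DKO1 against ACLY KO the medians near them were 0.69 and 0.38, and 0.64 and 0.44 without replicate 4. Medians of neighbouring genes, here and below, were computed after the members' values had been seen, and the part of the neighbours in a member's result was not tested.

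The core proteins moved with Cyc1. Uqcrc2, a core protein, ranged from 3333 to 3374 in WT and from 4094 to 4404 in ACLY KO, and rose in ACLY KO (0.34 ± 0.07, adjusted p = 0.0017, or 6.3e-06 without DKO1 replicate 4) and, likewise against WT, in DKO1 (0.31 ± 0.08, adjusted p = 0.0051, with 0.19 ± 0.05 and adjusted p = 0.0042 once DKO1 replicate 4 was left out). Its neighbours within 5 Mb had a median of -0.10 in ACLY KO. Uqcrc1, the other core protein, was called in ACLY KO only without DKO1 replicate 4 (0.25 ± 0.07, adjusted p = 0.0099). Uqcrq, a small subunit, held 1495 to 2355 in WT, 2111 to 2440 in ACSS2 KO cells, 2847 to 4606 in ACLY KO and 2201, 3415 and 11637 in DKO1. It rose in DKO1 against WT only while replicate 4 was kept (1.18 ± 0.41, adjusted p = 0.027, against 0.48 ± 0.21, adjusted p = 0.061). In ACLY KO against WT its value was 0.87, the highest of the complex, and it was called there only without DKO1 replicate 4. Over the complex 2 of 9 subunits rose and 1 fell in ACLY KO against WT (23.8% and 24.7% of all genes). Without DKO1 replicate 4 this was 6 and 2 (30.1% and 31.4% of all genes). Uqcrh, the hinge protein, was the subunit not called then, at 0.08 ± 0.17 (adjusted p = 0.69).

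**Figure D4:**
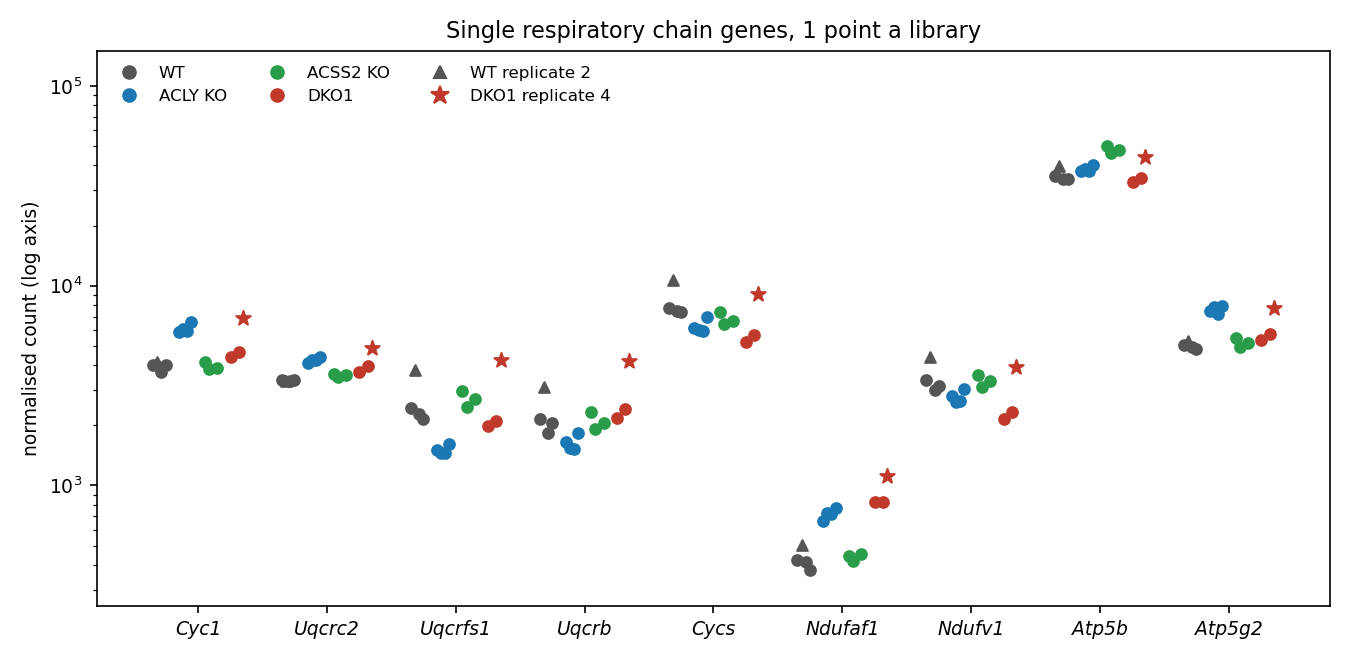
Normalised counts (log y axis) of 9 genes, with 1 point a library coloured by genotype; the triangle is WT replicate 2 and the star DKO1 replicate 4. ACLY KO libraries lie above WT in Cyc1, Uqcrc2, Ndufaf1 and Atp5g2. They lie below WT in Uqcrfs1, where they hold 1456 to 1621, and in Cycs, where they hold 5932 to 6936.

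Cycs, cytochrome c itself, had its lowest mean in ACLY KO cells or, without DKO1 replicate 4, in DKO1 cells. The WT libraries held 7763, 10636, 7431 and 7347 normalised counts and the ACLY KO libraries 6120, 6030, 5932 and 6936, with no overlap. ACSS2 KO libraries held 6392 to 7396, and DKO1 libraries held 5241, 5642 and 9062. With all libraries neither comparison with WT passed the test, at -0.39 ± 0.16 for ACLY KO (adjusted p = 0.060) and -0.35 ± 0.17 for DKO1 (adjusted p = 0.11). Without DKO1 replicate 4 it fell in ACLY KO (adjusted p = 0.0054) as well as in DKO1 (-0.59 ± 0.13, adjusted p = 0.0014). After the correction for length the adjusted p was 0.057 in ACLY KO. The 57 genes tested within 5 Mb had medians of -0.36 in ACLY KO and -0.50 in DKO1 against WT, the latter -0.46 without replicate 4.

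Complex I had 2 of 36 subunits higher in ACLY KO against WT and none lower by limma (4 higher and 0 lower at an unadjusted p under 0.05), where 23.8% of all genes rose. The median of the 36 was 0.21, close to the 0.20 of all members, and 27 of the 36 values were positive. Ndufs1, the largest subunit of the peripheral arm, held 2665 to 2958 normalised counts in WT and 3199 to 3363 in ACLY KO. It rose in ACLY KO (0.25 ± 0.05, adjusted p = 0.0011, or 0.00030 without DKO1 replicate 4) and, likewise against WT, in DKO1 (0.21 ± 0.05, adjusted p = 0.0045), and 0.20 ± 0.05 remained in DKO1 without replicate 4 (adjusted p = 0.0068). Ndufa10, an accessory subunit, rose in the same comparisons (0.34 ± 0.07, adjusted p = 0.0013, and 0.44 ± 0.08, adjusted p = 0.00031). Without replicate 4 it had an adjusted p of 0.00012 in ACLY KO and 0.36 ± 0.07 in DKO1 (adjusted p = 0.00045). These are the members that DKO1 replicate 4 raised least. Without that library 8 subunits rose and 2 fell in ACLY KO against WT (30.1% and 31.4% of all genes). In the fit chosen after the data were seen, with WT replicate 2 left out too, 25 rose and 2 fell. In that fit 68.8% of all genes were called in either direction. Among further core subunits Ndufv2 and Ndufs7 were called in none of the 5 comparisons with or without that library.

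The 2 that fell were Ndufv1, which binds FMN and takes up the electrons of NADH, and Ndufs8, an iron-sulfur subunit. Ndufv1 held 3008 to 4401 in WT, 3127 to 3570 in ACSS2 KO cells, 2623 to 3036 in ACLY KO and 2153, 2343 and 3926 in DKO1. With all libraries the values were -0.31 ± 0.17 for ACLY KO (adjusted p = 0.14) and -0.35 ± 0.18 for DKO1 (adjusted p = 0.12) against WT, and without DKO1 replicate 4 it fell in ACLY KO (adjusted p = 0.017) and by 0.62 in DKO1 (adjusted p = 0.00075). Ndufs8 likewise fell without that library, in ACLY KO (-0.30 ± 0.11, adjusted p = 0.024) as well as in DKO1 (-0.45 ± 0.13, adjusted p = 0.0088). Both genes lie near the start of chromosome 19. The 169 and 162 genes tested within 5 Mb of them had medians of -0.42 and -0.42 in ACLY KO and -0.65 and -0.65 in DKO1 against WT without replicate 4, each at least as far below 0 as the member's own value.

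In DKO1 against WT 11 of 36 complex I subunits rose with all libraries, where 27.9% of all genes rose, and 6 rose and 2 fell without DKO1 replicate 4 (30.3% and 31.0% of all genes). Ndufb9, an accessory subunit, held 1915 to 2985 in WT, 2061 to 2396 in ACSS2 KO cells, 3143 to 4123 in ACLY KO and 3763, 4278 and 10720 in DKO1. It rose in DKO1 by 1.31 ± 0.28 (adjusted p = 0.0016), and by 0.84 ± 0.15 without replicate 4 (adjusted p = 0.00040). In ACLY KO its value was 0.65 ± 0.26 (adjusted p = 0.056, or 0.00057 when that library was left out). Ndufb4, Ndufa6 and Ndufs3 also stayed called without that library, at 0.47, 0.44 and 0.41. Ndufa13 and Ndufab1, the mitochondrial acyl carrier protein, were called only with it, at 0.74 and 0.69 against 0.25 and 0.28 without. Ndufc2, another accessory subunit, fell in DKO1 against ACLY KO only without replicate 4 (-0.57 ± 0.18, adjusted p = 0.030, against -0.04 with all libraries). Ndufs5 was erratic, between 0 and 54.4 normalised counts, and reads may be shared with copies of the gene.

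Complex I assembly factors, which build the enzyme without staying in it, were led by Ndufaf1. Its WT libraries held 424.3, 502.3, 412.8 and 376.4 normalised counts, and its ACSS2 KO libraries 444.8, 418.5 and 455.5. The ACLY KO libraries held 664.1, 724.9, 718.8 and 770.6 and the DKO1 libraries 824.8, 822.8 and 1115. Every library without ACLY lay above every library with it. It rose in ACLY KO (0.75 ± 0.11, adjusted p = 7.0e-05, or 2.9e-06 without DKO1 replicate 4) and, likewise against WT, in DKO1 (1.09 ± 0.12, adjusted p = 4.5e-06, and 0.95 ± 0.10, adjusted p = 2.6e-06, without replicate 4). The step from ACLY KO to DKO1 was called with all libraries (0.34 ± 0.12, adjusted p = 0.045) and not without replicate 4 (0.20 ± 0.10, adjusted p = 0.15). The 90 genes tested within 5 Mb had medians of 0.17 in ACLY KO and 0.37 in DKO1 against WT, the latter 0.36 without replicate 4.

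Among the 8 assembly factors Ndufaf1 was the only one called in ACLY KO against WT with all libraries, where 23.8% of all genes rose. Ndufaf5 and Ndufaf8 joined it without DKO1 replicate 4 (0.39 ± 0.11 and 0.58 ± 0.17), where 30.1% of all genes rose. Ndufaf8 rose in DKO1 against WT only with that library (1.03 ± 0.33, adjusted p = 0.018, against 0.51 ± 0.21, adjusted p = 0.054). Ndufaf2 fell only without it, in DKO1 against WT (-0.42 ± 0.16, adjusted p = 0.041) and against ACLY KO (-0.48 ± 0.16, adjusted p = 0.040). Ndufaf6 fell in DKO1 against ACLY KO (-0.55 ± 0.16, adjusted p = 0.021) and Ndufaf4 in ACSS2 KO against WT (-0.32 ± 0.09, adjusted p = 0.015), both only without replicate 4. Ndufaf3 had a negative interaction under the same condition (-0.62 ± 0.22, adjusted p = 0.045). Per kilobase of transcript these factors were less abundant than the subunits they serve, with a median of 273.0 normalised counts in WT against 2252 for the core and 1936 for the accessory subunits.

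**Figure D5:**
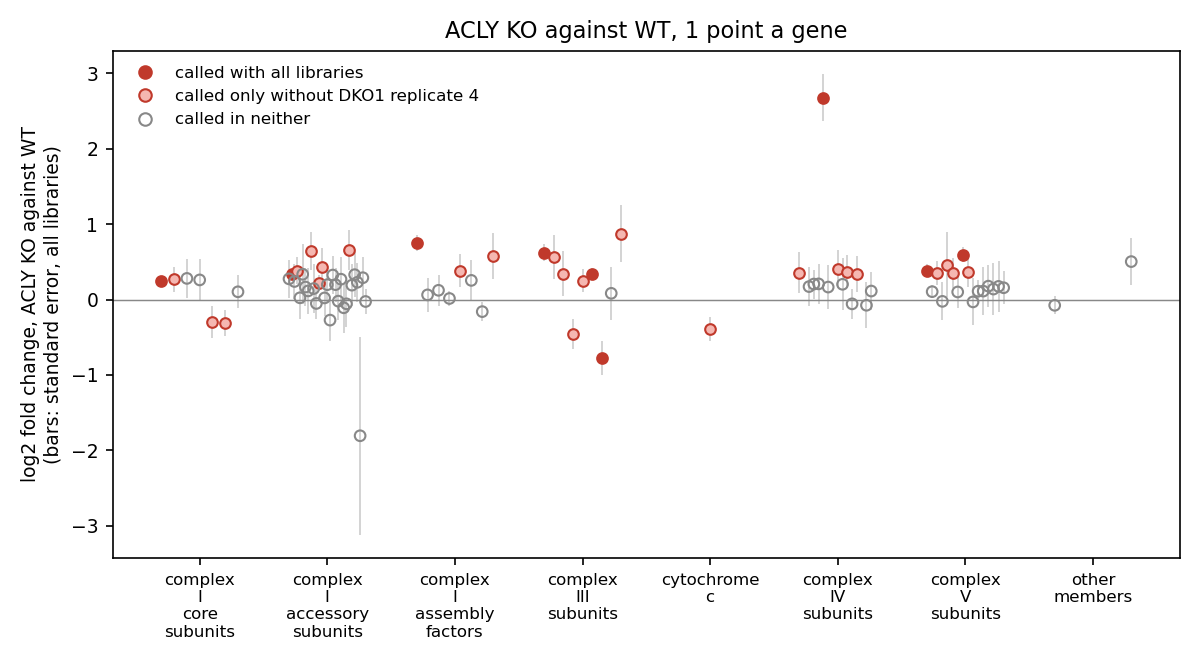
Log2 fold change of each of the 85 genes in ACLY KO against WT (y axis, bars are standard errors from the fit with all libraries) by group (x axis). Filled red points were called with all libraries (8 higher, 1 lower), pale red points only without DKO1 replicate 4, and open points in neither.

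Of 13 complex IV subunits tested 1 was called higher in ACLY KO against WT (23.8% of all genes), which was Cox6a2, described below. Without DKO1 replicate 4 this was 5 (30.1% of all genes), Cox6a2 among them. In DKO1 against WT Cox6a2 and Cox7b were called higher (27.9% of all genes). Without that library 2 were higher and 1 lower (30.3% and 31.0% of all genes). Cox5a, Cox5b, Cox6b1 and Ndufa4 were called in none of the 5 comparisons with or without it. Cox7b, a small subunit, held 1767 to 2693 in WT, 1884 to 2230 in ACSS2 KO cells, 2244 to 3030 in ACLY KO and 3070, 3546 and 8007 in DKO1, where each library exceeded all those of the other genotypes. It rose in DKO1 against WT (1.11 ± 0.26, adjusted p = 0.0030, and 0.68 ± 0.15, adjusted p = 0.0019, without replicate 4). Against ACLY KO it was called with replicate 4 (0.77 ± 0.26, adjusted p = 0.046) and not without (0.34 ± 0.15, adjusted p = 0.12). Its 36 neighbours within 5 Mb on the X chromosome had medians of 0.52 in DKO1 against WT and 0.42 against ACLY KO, and of 0.57 and 0.50 without replicate 4. Cox7a2l, a relative of subunit 7A found in supercomplexes, fell in DKO1 against WT only without replicate 4 (-0.33 ± 0.13, adjusted p = 0.035).

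The isoform pairs of complex IV kept their liver forms far above their muscle forms in every genotype. Cox6a1, the liver form of subunit 6A, averaged 3910 in WT and 4423 in ACLY KO, and Cox6a2, the heart and muscle form, averaged 3.64 and 28.3. Per kilobase of transcript this was 6848 against 5.36 in WT and 7745 against 41.6 in ACLY KO. Cox6a2 held 2.30 to 4.84 in WT, 6.22 to 8.64 in ACSS2 KO cells, 25.3 to 32.2 in ACLY KO and 7.35, 17.1 and 25.1 in DKO1. The ACLY KO libraries lay above all WT and ACSS2 KO libraries. Cox6a2 passed the filter on the mean only through the ACLY KO and DKO1 libraries, where it is high, so its log2 differences from WT, 2.68 in ACLY KO and 1.80 in DKO1 (1.43 without replicate 4), are given as a description with no test. Cox7a1, the muscle form of subunit 7A, rose in ACSS2 KO against WT (1.23 ± 0.37, adjusted p = 0.026, or 0.0024 when DKO1 replicate 4 was left out), with 9.26 to 12.8 in WT and 21.6 to 34.3 in ACSS2 KO. Cox7a2, its liver form, averaged 2345 and 2349 in the same genotypes (0.01 ± 0.24, adjusted p = 0.98). Cox4i1 averaged 10500 in WT, while Cox4i2, its second isoform, did not exceed 5.74 in any library.

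Complex V had the highest median level per kilobase of the complexes in every genotype. In ACLY KO against WT 2 of its 16 subunits rose, where 23.8% of all genes rose. Without DKO1 replicate 4 this was 6, where 30.1% of all genes rose. Atp5b, the catalytic beta subunit, had the highest level per kilobase of the complex in WT, ACLY KO and ACSS2 KO. It held 34050 to 39679 normalised counts in WT, 46221 to 50160 in ACSS2 KO cells, 37640 to 40403 in ACLY KO and 33001, 34568 and 44046 in DKO1. The 3 ACSS2 KO libraries lay above the other 11. It rose in ACSS2 KO against WT (0.43 ± 0.10, adjusted p = 0.0050, or 0.00015 when DKO1 replicate 4 was left out). The interaction was negative with all libraries (-0.49 ± 0.14, adjusted p = 0.017) and without that library (-0.61 ± 0.09, adjusted p = 0.00026). DKO1 against ACLY KO was at -0.06 ± 0.10 (adjusted p = 0.66), and at -0.19 ± 0.07 without that library (adjusted p = 0.058). The 76 genes tested within 5 Mb of Atp5b had a median of 0.51 in ACSS2 KO against WT and of -0.58 for the interaction, or -0.65 without DKO1 replicate 4.

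The ring subunit is encoded by 3 genes. Atp5g2 held 4804 to 5303 in WT, 4906 to 5497 in ACSS2 KO cells, 7232 to 7899 in ACLY KO and 5354, 5703 and 7746 in DKO1. It rose in ACLY KO (0.60 ± 0.10, adjusted p = 0.00019, or 3.7e-07 without DKO1 replicate 4) and fell again in DKO1 against ACLY KO (-0.30 ± 0.10, adjusted p = 0.05 after rounding and under the threshold with all libraries, and -0.46 ± 0.06, adjusted p = 0.00012, without replicate 4). Against WT it rose in DKO1 with all libraries (0.30 ± 0.10, adjusted p = 0.027), with 0.14 ± 0.06 without replicate 4 (adjusted p = 0.073) and -0.13 after the correction for length. Atp5g3 rose in ACLY KO only without DKO1 replicate 4 (0.37 ± 0.12, adjusted p = 0.015), while in the same fit Atp5g1 was at 0.10 ± 0.12 (adjusted p = 0.50). In WT the per kilobase levels were 12540 for Atp5g3, 8578 for Atp5g2 and 958.8 for Atp5g1.

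Atp5a1, the alpha subunit, rose in ACLY KO against WT (0.38 ± 0.09, adjusted p = 0.0024, or 8.6e-05 without DKO1 replicate 4), with 16446 to 19850 in WT and 22539 to 23818 in ACLY KO. In DKO1 against ACLY KO it fell only without replicate 4 (-0.31 ± 0.07, adjusted p = 0.0059, against -0.19, adjusted p = 0.16). Atp5c1, the gamma subunit of the rotor, rose in DKO1 against WT with replicate 4 (0.64 ± 0.17, adjusted p = 0.0061) and without it (0.36 ± 0.09, adjusted p = 0.0039). Atp5f1, the b subunit of the peripheral stalk, rose in DKO1 against WT only with it (0.54 ± 0.21, adjusted p = 0.049). Without it Atp5f1 rose in ACLY KO against WT (0.35 ± 0.11, adjusted p = 0.013, against 0.16 with all libraries) and fell in ACSS2 KO against WT (-0.33 ± 0.12, adjusted p = 0.042). Atp5o, the stalk subunit OSCP, was called in none of the 5 comparisons with or without it. Atp5s, coupling factor B, rose in DKO1 against ACLY KO with it (0.47 ± 0.13, adjusted p = 0.017) and without it (0.29 ± 0.10, adjusted p = 0.043), though not in a fit on the libraries of those genotypes alone.

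The interaction was called in Uqcrb and Atp5b with all libraries, and in Cox6a2, whose value is a description for the reason given above. Uqcrb was at 0.88 ± 0.30 (adjusted p = 0.044) and was not called without DKO1 replicate 4 (0.59 ± 0.22, adjusted p = 0.052). Cox6a2 was at -1.72, and at -2.08 without that library. Without it 7 more were negative, namely Cyc1 (-0.43), Uqcrc2 (-0.24), Atp5g2 (-0.51), Atp5a1 (-0.29), Cox7a1 (-1.86), Ndufs1 (-0.20) and Ndufaf3. In Cyc1, Uqcrc2, Atp5g2 and Atp5a1 the DKO1 libraries other than replicate 4 lay below every ACLY KO library.

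Cyc1, Atp5g2, Ndufb9, Ndufa6 and Cox6c, which rose in ACLY KO with all libraries or without DKO1 replicate 4, lie on chromosome 15. The 501 genes tested on that chromosome had a median of 0.24 in ACLY KO against WT and of -0.19 in DKO1 against ACLY KO, or -0.20 without replicate 4. Genes within 5 Mb of these 5 members had medians of 0.21 to 0.24 in ACLY KO, below the members' own 0.41 to 0.65.

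Genes of the same pathway outside these symbols were counted from lists, beside 23.8% of all genes higher and 24.7% lower in ACLY KO against WT (30.1% and 31.4% without DKO1 replicate 4). For complex II, which feeds electrons from succinate, 1 of 8 rose in ACLY KO against WT, namely Sdha (0.36, adjusted p = 8.2e-05), which fell again in DKO1 against ACLY KO (-0.41, adjusted p = 0.00016). Of 6 complex III assembly genes 3 rose and 1 fell in ACLY KO. Ttc19 rose (0.80, adjusted p = 1.3e-06) and Uqcc3 fell (-1.41, adjusted p = 0.00071). Of 19 tested genes for further subunits and assembly of complex IV 5 rose and none fell by limma (7 and 0 at an unadjusted p under 0.05), among them Cox10, a haem A synthesis enzyme (0.59, adjusted p = 0.00030). Of 5 complex V assembly and regulatory genes none rose by limma (0 at an unadjusted p under 0.05) and 2 fell. Atpaf1, an assembly factor of the catalytic head, averaged 265.7 in WT, 347.7 in ACSS2 KO cells, 46.9 in ACLY KO and 58.5 in DKO1 (-2.48 in ACLY KO, adjusted p = 4.4e-09), and Atpif1, the inhibitor of the enzyme, fell in ACLY KO (-0.73, adjusted p = 0.021). Of 6 further complex I assembly genes 2 rose and 1 fell. The changes named here were called also without DKO1 replicate 4. Without it the counts in ACLY KO against WT were 2 higher and 0 lower for complex II, 4 and 1 for complex III assembly, 12 and 0 for complex IV, 2 and 2 for complex V and 3 and 1 for complex I assembly. In DKO1 against WT 6 of the 19 complex IV genes rose and 1 fell (27.9% and 28.1% of all genes). Without that library 6 rose and 4 fell (30.3% and 31.0% of all genes).

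Of 12 regulators of mitochondrial genes 2 rose and 5 fell in ACLY KO against WT with and without DKO1 replicate 4, where 23.8% of all genes rose and 24.7% fell with all libraries. Ppargc1a, a transcriptional coactivator of mitochondrial genes, averaged 209.6 in WT, 726.6 in ACSS2 KO cells, 708.4 in ACLY KO and 481.7 in DKO1, and rose against WT in ACLY KO cells (1.75, adjusted p = 2.1e-07, or 1.3e-10 without DKO1 replicate 4) and also in ACSS2 KO cells (1.79, adjusted p = 1.7e-06, or 2.5e-09). Ppargc1b rose in ACLY KO (1.70, adjusted p = 6.6e-07, or 4.0e-07 without that library) and had 0.22 in ACSS2 KO (adjusted p = 0.36, or 0.30). The 5 that fell in ACLY KO by limma were Nrf1, given above, Pprc1, Esrra, Yy1 and Gabpb1. Pprc1 was at -0.52 (adjusted p = 0.016) and Esrra at -0.33 (adjusted p = 0.0085). Yy1 was at -0.37 (adjusted p = 0.0043) and Gabpb1 at -0.23 (adjusted p = 0.023). In ACSS2 KO against WT Esrra rose (0.60, adjusted p = 0.00058). Beside these values the median of the 85 members was 0.20 in ACLY KO and -0.05 in ACSS2 KO. Without WT replicate 2 and DKO1 replicate 4 the medians were 0.34 and 0.08, so the sign in ACSS2 KO depended on the libraries used. Against WT, DKO1 cells had 2 of the 12 higher and 5 lower (27.9% and 28.1% of all genes), and 2 higher and 6 lower without replicate 4 (30.3% and 31.0%).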

How the data were processed

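RNA-seq values of 14 libraries were used, grouped by the genotype in the labels. Per the labels, poly(A) RNA was made into directional libraries. The authors mapped reads to GRCm38 (mm10) with STAR and deposited a normalised signal for each gene symbol, estimated reads divided by DESeq factors (Illumina's DESeq2 software, version 1.0.1). How reads were assigned to genes, and by which annotation, is not given in the sources used here. The deposited signal is not in whole reads, so no count model was used and no counting interval was computed, and the spread among libraries of a genotype gave the precision.

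Tests were made in R 4.3.3 with limma 3.58.1 (with a trend of variance on level), for genes whose mean reached 10, after adding 1 and taking log2, a scale that understates the change of low genes. Each genotype had its own coefficient, the 14 libraries shared 1 estimate of spread, and 5 contrasts were tested. P-values were adjusted by Benjamini-Hochberg across the 12693 genes, and 26 symbols that appear as dates were left out. Transcript lengths and positions came from GENCODE M21 (GRCm38). The scripts were checked on simulated data with a capped spread and no trend on transcript length. The pass limit of that check was loosened after a first run failed. The check does not cover the pattern of DKO1 replicate 4.

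Members, lists and motifs were chosen with earlier results of these data known. Genes named are the 2 with the smallest adjusted p among those called in each group and comparison, genes of the electron and proton path, whole paralogue families, and the 2 of each group whose fold change moved most among those whose call depends on DKO1 replicate 4. Other members and the genes from the lists were named after their values were seen. One member that the rule names is not reported here. Alternatives were other added constants, filters, scalings and thresholds, a length correction, a replicate block, fits on only the groups compared, and each library left out in turn.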

Additional observations from a re-analysis of the deposited data

Results flagged for a closer look

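Uqcrfs1 in WT replicate 2 stood far from the other WT libraries, at 3795 normalised counts against 2153 to 2432. This was 1 of 32 sets of a gene and a genotype with 4 libraries examined, and chance alone flags about 1 in 20. Genotypes with 3 libraries were not examined.

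In Uqcrb and Atp5b the step from ACLY KO to DKO1 differed from the step from WT to ACSS2 KO by the test of the interaction (limma, adjusted over all genes). The log2 interaction was 0.8821 for Uqcrb (adjusted p = 0.044, and 0.052 without DKO1 replicate 4), -1.7215 for Cox6a2 and -0.4867 for Atp5b (adjusted p = 0.017, and 0.00026 without). Cox6a2 stayed under 33 normalised counts in every library and passed the filter on low values only through the ACLY KO and DKO1 libraries, where it is high, so its value is a description.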

How the results depend on the processing

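The number of members called depended strongly on the libraries and the handling of transcript length, and so did the share of all genes called. In ACLY KO against WT 9 members were called, against 29 with only the groups compared, 32 after length correction, 22 with equal library totals, 15 after quantile normalisation and 66 without WT replicate 2 and DKO1 replicate 4 (the last chosen after seeing the data). Leaving out 1 library at a time gave 9 to 33, with 33 without DKO1 replicate 4 and 15 without DKO1 replicate 1. In ACSS2 KO against WT, with 2 called, the same settings in the same order, apart from the groups compared, gave 10, 6, 4 and 16. A minimum of 10 in every library gave 1, an adjusted p under 0.01 gave 1, and single libraries left out gave 1 to 6 (6 without DKO1 replicate 4, and 1 without WT replicate 1 or 4 or ACSS2 KO replicate 1 or 4). In DKO1 against WT, with 24 called, only the groups compared gave 5, equal totals 41, an adjusted p under 0.01 gave 9, and leaving out both libraries 46. Single libraries left out gave 13 to 52, with 52 without DKO1 replicate 1, 39 without WT replicate 2, 13 without WT replicate 3 and 15 without WT replicate 4. In DKO1 against ACLY KO, with 6 called, no filter gave 3, only the groups compared 0, length correction 25, equal totals 10, an adjusted p under 0.01 gave 0, and leaving out both libraries 36. Single libraries left out gave 2 to 18 (18 without DKO1 replicate 1, 10 without DKO1 replicate 4, and 2 or 3 without WT replicate 1 or 3 or any ACLY KO or ACSS2 KO library). For the interaction, with 3 called, no filter gave 1, length correction 17, equal totals 7, quantile normalisation 7, an adjusted p under 0.01 gave 0, and leaving out both libraries 32. Single libraries left out gave 2 to 9 (9 without DKO1 replicate 4, 7 without DKO1 replicate 1). Among all genes 23.8% rose and 24.7% fell in ACLY KO against WT with all libraries, and 30.1% and 31.4% without DKO1 replicate 4. In either direction 61.2% were called after length correction and 68.8% without WT replicate 2 and DKO1 replicate 4. Shares for these settings in the further comparisons are given above. For the remaining settings, here and below, no share stands beside the counts, so they are not results about the members. The causes were not tested.

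A replicate block gave 9, 2, 23, 3 and 2 in the 5 comparisons in that order. Same-numbered libraries correlated between -0.43 and 0.45 over 18 pairs, 5 of them over 0.1, so the numbers were not taken to pair the libraries. Equal library totals moved the median of all genes to 0.10 in ACLY KO and 0.11 in ACSS2 KO against WT and to -0.16 for the interaction. Of 31 results for single genes 1 reversed, Atp5g2 in DKO1 against WT, at -0.134 after length correction, and 15 kept their direction and call under every alternative.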
